A study of Raphanus sativus with 9 samples.

Results

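RSG30297 and RSG30298 are a pair of radish (*Raphanus sativus*) genes with consecutive identifiers, both named *RsTGG2a* in the gene table of the paper as homologs of *TGG2* of *Arabidopsis*. They were chosen by these 2 identifiers, out of 64657 genes in the count files, and both passed the filter on low counts that left 32043 genes to test. Since they share a symbol, they are called by their identifiers here. Whole plants of the cultivar Taebaek (leaf and roots together) were sampled at 3 stages. The non-vernalized group (NV, called BV in the paper) was 4 weeks old. The vernalized group (V) had then spent 4 weeks in the cold, and the after-vernalization group (AV) had 4 weeks of cold followed by 2 weeks of warm growth. The plants were thus 4, 8, and 10 weeks old, and age and cold cannot be told apart, because no older plants without cold were among the libraries analysed here. The cold room also had short days under sodium light, whereas NV grew in a greenhouse. The day length of the greenhouse is not stated, and light cannot be told apart from cold either. Leaf and root RNA are mixed in every library, and the identifiers are not paired with names of tissue markers, so that the tissue label was not checked against markers.

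Myrosinases are thioglucosidases that cut the glucose from glucosinolates (GSLs), the sulfur-rich defense compounds of the *Brassicaceae*, and the product rearranges to isothiocyanates, nitriles, or thiocyanates. In intact tissue the enzyme and its substrate lie in different cells or compartments, and they meet when the tissue is crushed or chewed. In *Arabidopsis*, *TGG1* and *TGG2* encode the classical myrosinases of the shoot, found in myrosin cells and guard cells. Both lie close together in the *Arabidopsis* genome. *PEN2* encodes an atypical myrosinase that acts on indolic GSLs, and *PEN3* an ABC transporter that works with it in defense against microbes.

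Raw reads per gene were analysed in 8 libraries. AV replicates 2 and 3 had equal counts in 98.7% of the genes with at least 40 reads in the pair, against 0.359% to 0.899% for the other pairs of libraries. They were counted as 1 library by their mean, leaving n = 3 in NV and V and n = 2 in AV. Both RSG30297 and RSG30298 had the same count in these replicates. The reads counted on genes ranged from 21119531 to 27606212 per library, and the detection floor of 3 reads was equal to 0.107 to 0.148 CPM (counts per common number of reads, after TMM normalization, which scales the libraries to each other).

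In NV, RSG30297 had 8366, 7341, and 5851 reads in replicates 1, 2, and 3. In V it had 803, 777, and 517 reads, and in AV 705 reads in replicate 1 and 914 in the mean of replicates 2 and 3. The lowest NV library thus held several times the reads of the highest library of V or AV, and the groups V and AV overlapped. After normalization, RSG30297 was at 306 ± 57.8 CPM in NV (SD, n = 3), at 29.9 ± 7.77 CPM in V (SD, n = 3), and at 30.1 ± 4.99 CPM in AV (SD, n = 2).

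RSG30298 had 6872, 5476, and 3600 reads in the NV replicates. It had 492, 406, and 399 reads in V, and 365 and 509 reads in the AV libraries. Again no library of V or AV came near the NV libraries, while V and AV overlapped. Its level was 226 ± 68.0 CPM in NV (SD, n = 3), 18.4 ± 1.37 CPM in V (SD, n = 3), and 16.2 ± 3.52 CPM in AV (SD, n = 2). The lowest count of either gene, 365, carries a counting error of 5.23%, well below the spread between most replicates.

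**Figure D1:**
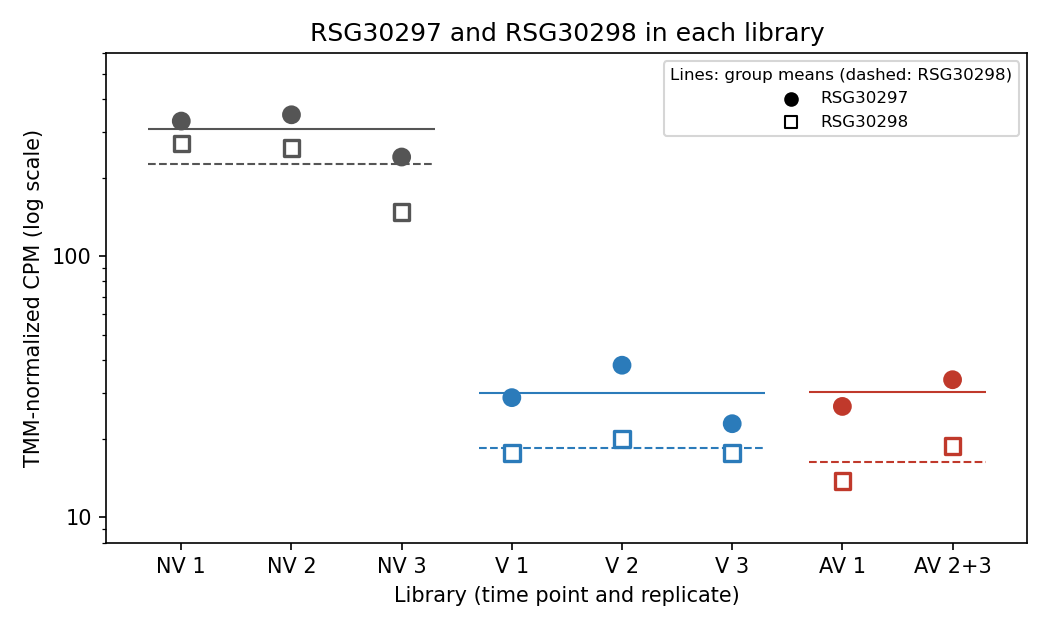
TMM-normalized CPM (log axis) of RSG30297 (filled circles) and RSG30298 (open squares) in each of the 8 libraries, with group means as lines (dashed for RSG30298). RSG30297 lies at 240 to 348 CPM in NV and at 22.8 to 38.2 CPM in V and AV, and RSG30298 at 148 to 270 CPM and 13.8 to 19.97 CPM.

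Both genes were strongly reduced during the cold. RSG30297 was 10.2-fold lower in V than in NV (log2 fold change -3.35, standard error 0.22). By the quasi-likelihood test of edgeR, Benjamini-Hochberg adjusted over all genes tested, this had an adjusted p = 2.13e-08. RSG30298 was 12.3-fold lower (log2 fold change -3.62, standard error 0.23, edgeR adjusted p = 1.68e-08). The fitted V level of RSG30297 was 9.79% of its NV level (95% interval 7.08% to 13.5%), and that of RSG30298 was 8.14% (5.79% to 11.5%). At this threshold of 0.05, 19.3% of all genes tested were lower in V than in NV, and 19.2% were higher, so that a fall as such was frequent. Falls of this size were not, since 1.17% of the genes tested had a lower log2 fold change than RSG30297, and 0.955% a lower one than RSG30298. Libraries without overlap, lower in V, were found for 23.9% of the genes tested. When single libraries were left out, the log2 fold changes ranged from -3.57 to -3.19 for RSG30297 and from -3.85 to -3.47 for RSG30298. In these bulk samples, fewer cells that express the genes and less RNA per cell cannot be told apart.

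After the plants had returned to warm conditions, both genes were still low. RSG30297 was 10.1-fold lower in AV than in NV (log2 fold change -3.34, standard error 0.26, edgeR adjusted p = 1.22e-07), and RSG30298 13.9-fold lower (-3.80, standard error 0.28, adjusted p = 6.49e-08). Of all genes tested, 19.8% were lower and 17% were higher in AV against NV, and 29% were lower there without overlap of the libraries. A share of 2.09% and 1.59% had a lower log2 fold change than RSG30297 and RSG30298. The V and AV fold changes share the NV libraries and are not independent of each other.

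A difference between AV and V was not detected for either gene. The log2 fold change of RSG30297 in AV against V was 0.01 (standard error 0.23, edgeR adjusted p = 0.979), and its 95% interval allows an AV level between 72.0% and 141% of the V level. For RSG30298 it was -0.18 (standard error 0.24, adjusted p = 0.615), with an interval from 62.0% to 126% of the V level. These intervals rest on 2 AV libraries, and the sign of both values changed when single libraries were left out. In this comparison 16.9% of all genes tested were lower and 14.7% higher.

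The libraries of NV were not alike for these genes. NV replicate 3 had the lowest level of both, with 240 CPM of RSG30297 and 148 CPM of RSG30298, against 329 and 348 CPM of RSG30297 and 270 and 260 CPM of RSG30298 in replicates 1 and 2. In 9 of the 11 TGG homologs NV replicate 3 was the lowest of the NV libraries, and it was the lowest for 39.6% of all genes tested. The coefficient of variation between NV libraries was 18.9% for RSG30297 and 30.1% for RSG30298. In V, replicate 2 had the highest level of each of the 11 TGG homologs, with RSG30297 at 38.2 CPM and RSG30298 at 19.97 CPM. The share of all genes tested that were highest there was not determined.

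The relation of the genes to each other was followed by the share of RSG30297 in the reads of the pair, which needs no normalization. The lengths of the genes were not at hand, so that this share does not say which gene has more transcripts, but it can be compared between libraries. RSG30297 held more of the reads in every library. Its share was 54.9%, 57.3%, and 61.9% in the NV replicates, 62.0%, 65.7%, and 56.4% in the V replicates, and 65.9% and 64.2% in the AV libraries. The 95% Clopper-Pearson intervals, which cover counting error only, were 54.1% to 55.7% for NV replicate 1 and 60.9% to 62.9% for NV replicate 3. The share thus differed between replicates of one group by more than the counting error.

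**Figure D2:**
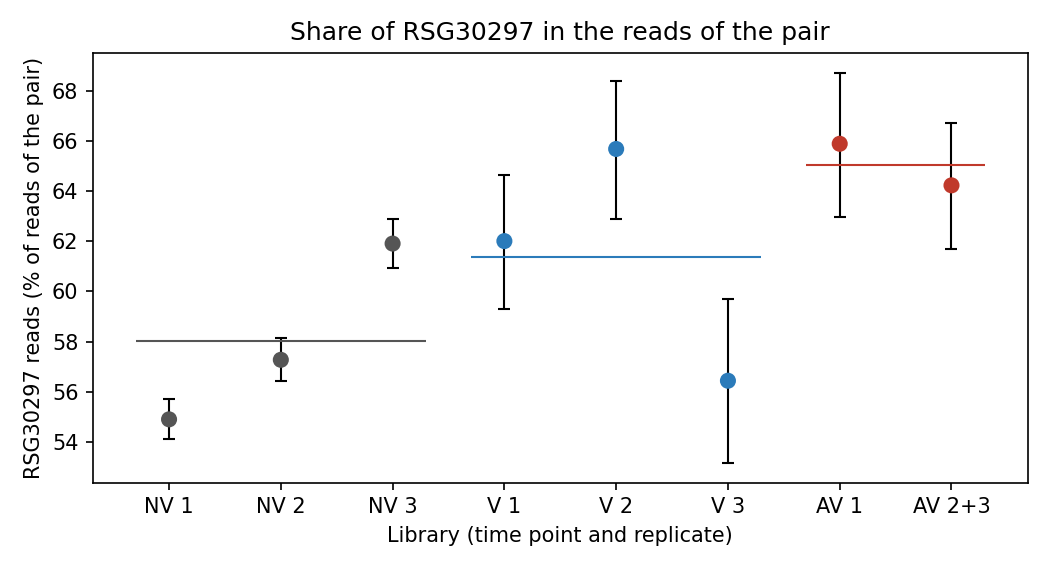
Share of RSG30297 in the reads of RSG30297 and RSG30298 (percent, on an axis that does not start at 0) in each library, with 95% Clopper-Pearson intervals as bars and group means as lines. The mean share is 58.0% in NV, 61.4% in V, and 65.1% in AV, and the NV and V libraries overlap.

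The mean log2 ratio of RSG30297 to RSG30298 was 0.47 ± 0.21 in NV (SD, n = 3), 0.67 ± 0.28 in V (SD, n = 3), and 0.90 ± 0.07 in AV (SD, n = 2). These differences did not pass an exact permutation test over the 3 groups (p = 0.214, where the smallest p that the 280 groupings allow is 0.00357). Between single groups the changes were 0.20 from NV to V (exact permutation test, two-sided, p = 0.4) and 0.43 from NV to AV (p = 0.2 in the same test), and no p below 0.1 is possible with so few libraries. The AV libraries both lay above the NV libraries, whereas V overlapped with both. A change of the ratio was therefore not shown, and the same fall of both genes was not shown either.

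Of the identifiers next to the pair, the 3 before RSG30297 had at most 2 reads in any library, below the detection floor, so that no fall could have been seen in them. On the other side stands RSG30299, named *RsTGG1c* as a homolog of the myrosinase gene *TGG1*, and the 2 identifiers after it again had at most 2 reads. Whether consecutive identifiers are neighbours in the genome was not examined, as positions were not at hand. RSG30299 had 30612, 32456, and 23280 reads in NV, 2249, 1841, and 1668 reads in V, and 2511 and 2620 reads in AV. It fell 15.1-fold in V (log2 fold change -3.92, standard error 0.20, edgeR adjusted p = 2.17e-09) and was 12.9-fold lower in AV than in NV (-3.69, standard error 0.24, adjusted p = 1.92e-08).

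RSG30299 had its lowest values in V, from which AV did not differ by the test (log2 fold change 0.23, adjusted p = 0.419). The log2 ratio of the summed reads of the pair to RSG30299 was higher by 0.45 in V than in NV and by 0.16 in AV than in NV. Over the 3 groups this did not pass the threshold (exact permutation test, adjusted p = 0.0731 over 14 ratio tests). It did pass with all 9 libraries counted as deposited (adjusted p = 0.0423), as it did without NV replicate 1 (0.041) and without AV replicate 1 (0.0364), whereas it reached 0.21 when other libraries were left out.

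Of the 20 identifiers within 10 of the pair on either side, 11 were tested and 8 were at or below the floor in all libraries. Of the 11, 3 were lower and 1 was higher in V than in NV, where 19.3% and 19.2% of all genes tested were. The 3 were RSG30299, RSG30287 (log2 fold change -1.12), and RSG30292 (-0.73), the latter 2 named after their values had been seen. In AV against NV, 4 were lower and 2 higher, against 19.8% and 17% of all genes. The 4 were RSG30299, RSG30287 (log2 fold change -2.91), RSG30305 (-2.74), and RSG30292 (-0.78). The 2 higher ones were RSG30303 (0.93) and RSG30307 (1.17). All of these except RSG30299 were likewise named after their values had been seen. With so few genes these counts are not set apart from the shares of all genes, and within 5 identifiers of the pair 2 of the 5 tested were lower in V. Across the files, 20440 pairs of consecutive identifiers had both genes tested. In 20 of them (0.0978%) both genes were lower in V than in NV by a log2 fold change of at least 3, and in 38 (0.186%) both were lower in AV than in NV by as much. For single genes the shares were 1.51% and 2.65%. Of 13928 runs of 3 consecutive tested identifiers, 3 fell throughout by this much in V and 3 in AV, and the run that starts with RSG30297 was among them in both comparisons. This limit of 3 was chosen after the values of the pair had been seen, and the counts are a description.

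The gene table of the paper lists 15 genes of GSLs breakdown, all of which were tested, 11 of them TGG homologs. In V against NV, 8 of the 11 TGG homologs were lower and 2 higher, where 19.3% and 19.2% of all genes tested were. The median log2 fold change of the TGG homologs was -1.55, against 0.01 over all genes tested. In AV against NV all 11 were lower, where 19.8% of all genes tested were, with a median of -3.03 against 0.00 over all genes. In AV against V, 6 were lower, where 16.9% of all genes tested were. The other 5 did not pass the threshold, both genes of the pair and RSG30299 among them. Of the remaining 2, *RsTGG1d* (log2 fold change 0.46, edgeR adjusted p = 0.0612) passed as higher in AV with library totals (0.0253), DESeq2 (0.0348), only the compared groups (0.0457), and all 9 libraries (0.0199), as well as without NV replicate 2 (0.048), NV replicate 3 (0.0433), or V replicate 2 (0.0099). *RsTGG1h* (0.41, adjusted p = 0.0949) passed as higher only without V replicate 2 (0.0296).

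**Figure D3:**
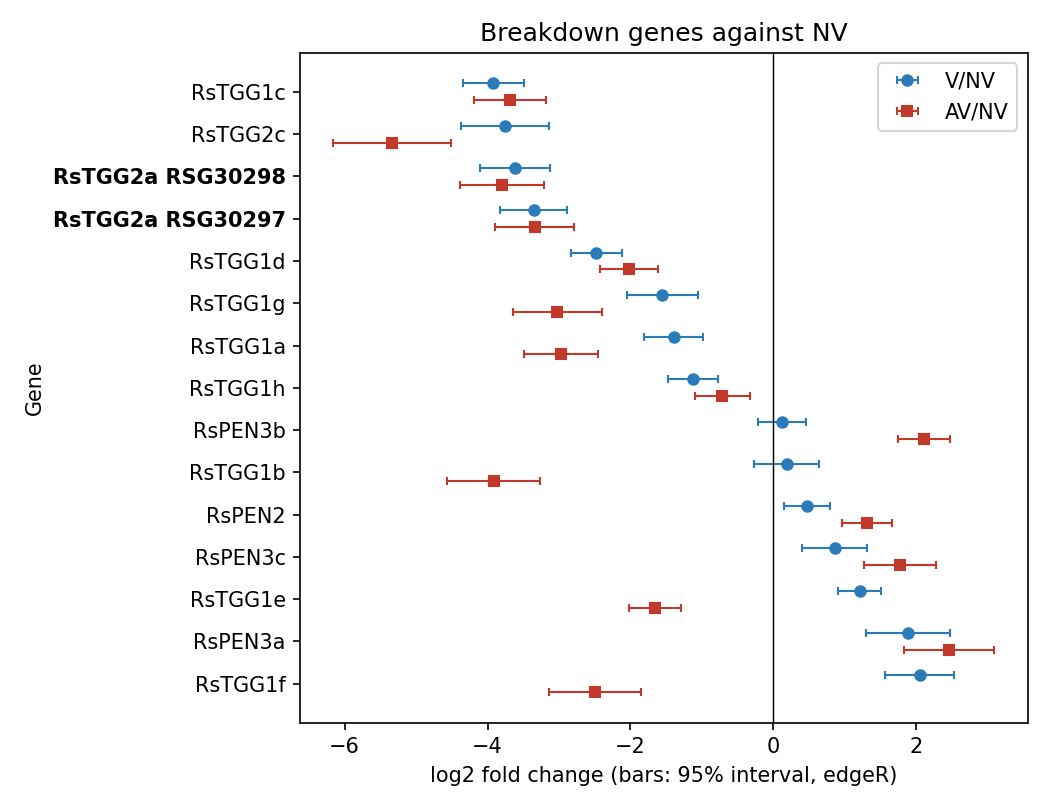
Log2 fold changes of the 15 breakdown genes in V against NV (circles) and AV against NV (squares), with 95% intervals from edgeR's quasi-likelihood fit as bars. RSG30297 (-3.35 and -3.34) and RSG30298 (-3.62 and -3.80), in bold, have similar values in both comparisons, whereas *RsTGG1e* and *RsTGG1f* are above 0 in V and below 0 in AV.

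The third *TGG2* homolog, *RsTGG2c*, had 1205, 1081, and 750 reads in NV, 79, 96, and 47 in V, and 35 and 22 in AV. Its fall in V was close to that of the pair (log2 fold change -3.76, standard error 0.29, edgeR adjusted p = 1.07e-07). It fell again from V to AV (-1.58, standard error 0.38, adjusted p = 0.00452), a step that was not detected for the pair, although this call was lost without the averaged AV library (adjusted p = 0.0809). The mean log2 ratio of the pair to *RsTGG2c* was higher by 0.34 in V than in NV, but the libraries of these groups overlapped. It was higher by 1.82 in AV than in NV, without overlap. The ratio differed between the 3 groups (exact permutation test, adjusted p = 0.0125 over 14 tests).

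Among the *TGG1* homologs, *RsTGG1d* had the course closest to the pair after RSG30299 by Pearson's r of log2 CPM (0.970), with a Spearman's rho of 0.643. *RsTGG1d* had log2 fold changes of -2.48 in V and -2.02 in AV against NV (edgeR adjusted p = 2.92e-08 and 1e-06). It fell less than the pair, with a ratio of the pair to *RsTGG1d* that fell by 0.95 in V and by 1.48 in AV on the log2 scale (exact permutation test over the 3 groups, adjusted p = 0.0125). *RsTGG1a* and *RsTGG1g* fell in steps. *RsTGG1a* went from 607 ± 172 CPM in NV to 231 ± 6.92 CPM in V and 77.3 ± 2.14 CPM in AV, and *RsTGG1g* from 53.9 to 18.4 and 6.61 CPM. *RsTGG1h* was 2.18-fold lower in V and 1.64-fold lower in AV than in NV, the smallest falls of TGG homologs that passed the test in these comparisons, and its call in AV was lost without the averaged AV library (adjusted p = 0.0801).

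In the cold, 3 *TGG1* homologs were not lower than in NV. *RsTGG1e* rose from 83.1 CPM in NV to 192 ± 8.63 CPM in V (log2 fold change 1.21, edgeR adjusted p = 8.53e-06) and was at 26.4 CPM in AV. *RsTGG1f* rose from 7.17 to 29.7 ± 2.16 CPM (2.05, adjusted p = 4.12e-06) and was at 1.26 CPM in AV. *RsTGG1b* had 22.5 CPM in NV and 25.6 ± 1.69 CPM in V (0.18, adjusted p = 0.529), and 1.48 CPM in AV. The ratio of the pair to each of these genes changed from NV to V by -3.65 (*RsTGG1b*), -4.65 (*RsTGG1e*), and -5.54 (*RsTGG1f*) on the log2 scale, and each ratio differed between the 3 groups (exact permutation test, adjusted p = 0.00714 each).

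The pair also lost ground within the TGG homologs as a whole. It held 17.2%, 15.4%, and 14.0% of the reads of the 11 TGG homologs in the NV replicates, 6.15%, 6.69%, and 5.33% in the V replicates, and 8.50% and 10.7% in the AV libraries. The 3 groups did not overlap, and the share differed between them (exact permutation test, p = 0.00357, the smallest that the design allows). The mean share fell by 9.47 percentage points from NV to V and fell by 5.91 from NV to AV, and it was higher by 3.56 in AV than in V. Between single groups each of these changes had p = 0.1 (exact permutation test, two-sided), the lowest possible with so few libraries. The 11 TGG homologs together took 0.333% ± 0.0632 of the reads on genes in NV, 0.0791% ± 0.00404 in V (SD, n = 3 each), and 0.0499% ± 0.00237 in AV (SD, n = 2). The mean share of the pair was thus higher in AV than in V. Between these groups no change in the level of either gene of the pair was detected, and 6 of the other TGG homologs were lower in AV. RSG30299 took a similar course within these reads. In replicate 1 it had 30612 of the 88523 reads in NV, 2249 of 21061 in V, and 2511 of 12581 in AV.

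**Figure D4:**
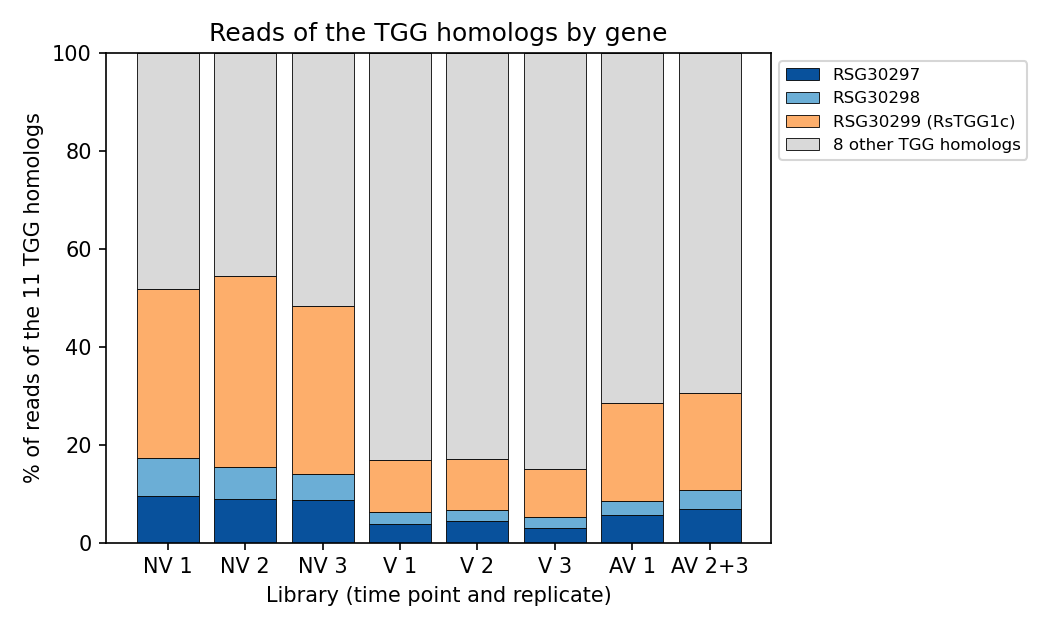
Reads of the 11 TGG homologs in each library, as percent of their sum, for RSG30297, RSG30298, RSG30299, and the 8 other homologs. The pair and RSG30299 together hold 48.3% to 54.5% in NV, 15.03% to 17.1% in V, and 28.5% to 30.5% in AV.

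The breakdown genes that are not TGG homologs were higher in AV than in NV. *RsPEN2* rose from 163 CPM in NV to 226 ± 19.8 CPM in V and 404 ± 17.3 CPM in AV, with log2 fold changes of 0.47 (edgeR adjusted p = 0.0213) and 1.31 (adjusted p = 1.79e-05) against NV. The call in V was lost without NV replicate 1, NV replicate 2, or V replicate 3, with adjusted p = 0.0865, 0.0513, and 0.0609. *RsPEN3a* and *RsPEN3c* rose in V by 1.88 and 0.86 on the log2 scale (adjusted p = 6.31e-05 and 0.00515), and *RsPEN3b* did not pass in V (0.12, adjusted p = 0.574). In AV all 4 were higher than in NV, by 1.31 to 2.46, where 17% of all genes tested were higher. The ratio of the pair to each of them differed between the 3 groups (exact permutation test, adjusted p from 0.00714 to 0.01).

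Elsewhere in the GSLs pathway, 16 of the 37 tested aliphatic biosynthesis genes were lower and 3 were higher in V against NV, with 27 lower and 1 higher in AV against NV. The shares of all genes were 19.3% lower with 19.2% higher in V, and 19.8% lower with 17% higher in AV. The median log2 fold changes of the aliphatic genes were -0.48 and -1.64, against 0.01 and 0.00 over all genes. Of the 23 tested indolic biosynthesis genes, 4 were lower and 6 higher in V, and 6 were lower and 3 higher in AV, with medians of 0.29 and 0.03, and these shares were near those of all genes. These small counts moved with single libraries, as 2 indolic genes were lower in V without V replicate 1, 5 were higher in AV without NV replicate 3, and 2 and 3 were lower in AV without AV replicate 1 or without the averaged AV library. The 1 aliphatic gene higher in AV was not called without NV replicate 1, NV replicate 2, or the averaged AV library. Of the 12 MYB transcription factors of the table, 7 were higher in V than in NV and the other 5 did not pass the threshold, with a median of 0.67. In AV against NV, 5 of them were lower and 4 higher, with a median of -0.22.

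Finally, the genes most like the pair were sought by the Pearson correlation of their log2 CPM with the mean of the pair over the 8 libraries. The libraries form separate time points, so that these values mostly reflect the gap between NV and the other libraries, and they are given as a description. RSG30297 and RSG30298 had r = 0.993 with each other, a value reached by 0.0147% of all pairs of consecutive tested identifiers, whose median r was 0.06. In the gene table, the closest were *RsTGG1c* (r = 0.994), *RsTGG1d* (0.970), *RsTGG2c* (0.960), the sulfotransferase homolog *RsSOT18f* (0.947), and *RsGGP1c* (0.930), a homolog of a gamma-glutamyl peptidase of GSLs core synthesis. This order rests on Pearson's r, since none of these 5 genes was among the 5 closest by Spearman's rho (0 shared), and their rho with the pair was 0.548 to 0.857. *RsSOT18f* fell 2.90-fold in V and was 4.35-fold lower in AV than in NV, and *RsGGP1c* was 2.00-fold and 1.83-fold lower. The gene with the highest r of all was RSG13734 (0.997), which went from 32.9 CPM in NV to 9.50 ± 0.369 CPM in V (SD, n = 3) and 10.05 ± 0.936 CPM in AV (SD, n = 2). In all, 1604 of the other 32041 genes (5.01%) had r of at least 0.9.

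The share of reads that aligned to more than one place, which HTSeq-count does not assign to a gene, was 1.30% to 1.59% in NV, 1.012% to 1.21% in V, and 0.975% and 1.12% in AV. Reads shared by near-identical homologs would be among them, and their part in the values of the pair was not tested. Reads assigned to no gene for lying in several were at most 0.0135% of any library.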

How the data were processed

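Total RNA of leaf and roots was made into stranded mRNA libraries, 3 per time point, and sequenced on an Illumina NovaSeq instrument. After quality control (FastQC) and trimming (fastx-trimmer), the authors used TopHat2 to align the reads to the radish genome of the Nodai database, and they deposited the raw counts per gene that HTSeq-count gave. Tool versions and the strand setting are not given in the sources used here. HTSeq-count's totals of unassigned reads (4.27% to 8.89% per library) were left out. The rounded mean of AV replicates 2 and 3 was used as 1 library, 8 of 9 in all.

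Counts were filtered by filterByExpr, normalized by TMM, and fitted over all 3 groups with edgeR 4.0.16 (R 4.3.3) by the robust quasi-likelihood test, with Benjamini-Hochberg adjustment over 32043 genes and a threshold of 0.05. Standard errors are the log2 fold change divided by the square root of F. Log2 CPM had a prior count of 2. Ratios between genes (0.5 added to counts, except within the pair) and read shares were tested by exact permutation over libraries. The scripts were tested on simulated data. The paper calls the samples biological replicates without saying what was separate, and p-values measure the spread between these samples.

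The pair and the gene lists were chosen with earlier results of these data known. Named genes are the pair, the other 13 breakdown genes, and the 5 genes of the gene table and 1 further identifier with the highest correlation with the pair. A few nearby identifiers were also named, after their values had been seen. The alternatives were DESeq2's size factors, upper quartile, and library totals in place of TMM, 2 other filters, edgeR's likelihood ratio test, DESeq2 1.42.0, a fit to the compared groups alone, all 9 libraries, a replicate block, each library left out, 5 added to counts, Spearman's correlation, and 5 or 25 identifiers on either side. The 94 identifiers of the gene table were all in the files, and 87 were tested. No RSG identifier matched the RefSeq table of radish genes (0 matches), so that sequences and positions are not analysed here.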

Additional observations from a re-analysis of the deposited data

How the results depend on the processing

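The falls of RSG30297 and RSG30298 in V and AV against NV kept their direction and passed the threshold under every alternative run. Without a replicate block, the log2 fold change of RSG30297 in AV/V was 0.01, and it became -0.025 with upper quartile normalization and -0.14 with the replicate block; with libraries left out in turn it ranged from -0.16 to 0.22. That of RSG30298 ranged from -0.41 to 0.028, and that of RSG13734 from -0.010 to 0.18. None of these passed the threshold in any setting. With the replicate block, the log2 fold changes in V against NV were -3.37 for RSG30297 and -3.57 for RSG30298, and no other call reported for the pair changed. Deviations of same-numbered NV and V libraries had r from 0.0514 to 0.233, and each of these was the highest for its NV library except for number 3. NV replicate 3 had r = 0.113 with V replicate 3 and 0.146 with V replicate 1. With 3 libraries per group these values cannot settle whether the numbers mark pairs. The main fit did not take them as pairs, and the replicate block was run as an alternative. The log2 ratio of the pair to RSG30299 was higher by 0.45 in V than in NV with all 9 libraries. This change ranged from 0.39 to 0.55 with libraries left out. What passed the threshold with all 9 libraries was the test of this ratio over the 3 groups, not a test of V against NV. The change of the ratio to *RsTGG2c* from NV to V ranged from 0.19 to 0.52. Its call over the 3 groups was lost without the averaged AV library.

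In AV against V, the main fit called 6 of 23 indolic genes lower and 2 higher. It called 6 of 15 breakdown genes lower and 3 higher, and 27 of 37 aliphatic genes lower and 4 higher. Of all genes tested, 16.9% were lower and 14.7% higher. The number of indolic genes higher in AV than in V was 1 with the filter of more than 1 CPM, and that of breakdown genes 5 with only the compared groups. With libraries left out, the breakdown genes higher in AV than in V ranged from 2 to 5. Aliphatic genes higher ranged from 0 to 1 in AV/NV and from 2 to 4 in AV/V. Indolic genes ranged from 2 to 6 lower in V/NV, 2 to 7 lower and 2 to 5 higher in AV/NV, and 2 to 7 lower and 0 to 2 higher in AV/V. Over all genes, 4154 to 6692 were lower and 3295 to 5791 higher in AV/NV, and 3271 to 6076 lower and 2722 to 5450 higher in AV/V, with the lowest counts when an AV library was left out. The cause was not tested. Depth was no limit for the pair, but *RsTGG2c* in AV had at most 35 reads.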
